A study of Homo sapiens with 14 samples.

Results

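ZBP1, the RNA-editing enzyme gene ADAR and the 5 genes RIPK1, RIPK3, MLKL, CASP8 and FADD were followed across a ZBP1 knockdown experiment in human multiple myeloma cells. These 7 genes were chosen by name, as the sensor, its best-known antagonist and its death-signalling partners, out of 58051 genes in the deposited tables. RNA was sequenced from 14 libraries of 2 established lines, MM1.S and NCI-H929 (written H929), which were transduced with lentivirus and grown in RPMI medium with fetal bovine serum. The MM1.S groups were anti-ZBP1 shRNA1, anti-ZBP1 shRNA2 and 1 scramble control that both hairpins share. The H929 groups were shRNA1, the scramble control for shRNA1, shRNA2 and the scramble control for shRNA2. Each of the 7 groups has 2 libraries; nothing in the labels says whether these came from separate transductions, so p-values measure only the spread between libraries, which may be technical.

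ZBP1 carries Z-alpha domains that bind left-handed Z-form RNA and DNA, and RHIM motifs through which it binds the kinases RIPK3 and RIPK1. RIPK3 phosphorylates MLKL, whose assembly in the plasma membrane ruptures the cell (necroptosis). RIPK1 can also recruit FADD, an adaptor, and through it CASP8, the protease that starts apoptosis and that cleaves RIPK1 and RIPK3, holding necroptosis back. ADAR encodes ADAR1, which deaminates adenosine to inosine in double-stranded RNA; its interferon-induced long isoform also has a Z-alpha domain and limits the RNA that ZBP1 can sense. The counts are per gene, so the long and the short ADAR1 isoform are not separated here.

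In the GENCODE 29 annotation of GRCh38, ZBP1 lies at chr20:57603846-57620576 on the minus strand and ADAR at chr1:154582057-154628013 on the minus strand. RIPK1 lies at chr6:3063991-3115187 on the plus strand, RIPK3 at chr14:24336021-24340045 on the minus strand and MLKL at chr16:74671855-74700960 on the minus strand. CASP8 lies at chr2:201233443-201287711 and FADD at chr11:70203163-70207390, both on the plus strand. Reads of the RIPK1 antisense gene AL031963.3, which shares 238 exonic bases with RIPK1, came to 261 over all libraries, against 10968 for RIPK1. AL096870.1 overlaps 11% of the exonic bases of RIPK3 on the same strand and AP000879.1 overlaps 54.9% of those of FADD on the opposite strand. Both had 0 reads in every library, and how the authors' counting treated reads in such overlaps is not given in the sources used here.

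RefSeq promoters (GRCh38.p14, 250 bases before to 50 after a start) were at hand for ADAR, RIPK1, MLKL, CASP8 and FADD, 11 in all. They were searched on both strands for GAAANNGAAA, the core of the element that interferon-activated factors bind. It was found in 3 of the 11, against 3.57% of all 35116 promoters. The 3 matches are 2 sites, because 2 RIPK1 promoters overlap, and both read as TTTCNNTTTC on the strand of the gene (in capitals). The RIPK1 site spans bases -67 to -58 from one of its starts (chr6:3068301-3068330, plus strand) and the CASP8 site spans bases -3 to 6 of its most upstream listed start (chr2:201233450-201233479, plus strand). A match is a run of letters, not evidence of binding.
RIPK1: cgcgcggaggTTTCGGTTTCctcttttacg
CASP8: gagtttttggTTTCTGTTTCaccttgtgtc

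Libraries held 20461980 to 28419331 reads in MM1.S and 15926867 to 22254348 reads in H929. All 8 plasma cell markers examined were expressed in both lines, among them SDC1 at 688.9 CPM or more in MM1.S and 588.7 CPM or more in H929. FGFR3, driven by the translocation of H929, had at least 335.3 CPM there and at most 0.739 CPM in MM1.S. The defining B cell gene MS4A1 stayed at or below 0.929 CPM in all libraries and the T cell gene CD3D at or below 0.109 CPM. Reads from mitochondrial genes took 11.6% to 12.1% in MM1.S knockdown libraries against 9.87% to 10.2% in scramble libraries. In H929 they took 5.98% to 6.34% with shRNA1 against 6.63% to 7.22% in its scramble, and 8.72% to 8.80% with shRNA2 against 6.84% to 7.12% in its scramble; their part in the results below was not tested. In such bulk samples, fewer expressing cells and less RNA per cell cannot be told apart.

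Values per library are given as normalized CPM: reads scaled to a common library size, after the between-library scaling that the tests use, and given as CPM. Because the MM1.S and H929 tables were scaled separately, levels are set side by side between the lines but not tested. Groups of 2 libraries are also said to overlap or to lie apart. How many of all genes lie apart in this way was not counted, so such statements only describe the libraries. The plot of the 7 genes by library shows the 3 patterns described in turn: a loss of ZBP1 in all 4 knockdown groups, a RIPK1 gain in the shRNA1 groups, and RIPK3 reads in MM1.S but none in H929.

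**Figure D1:**
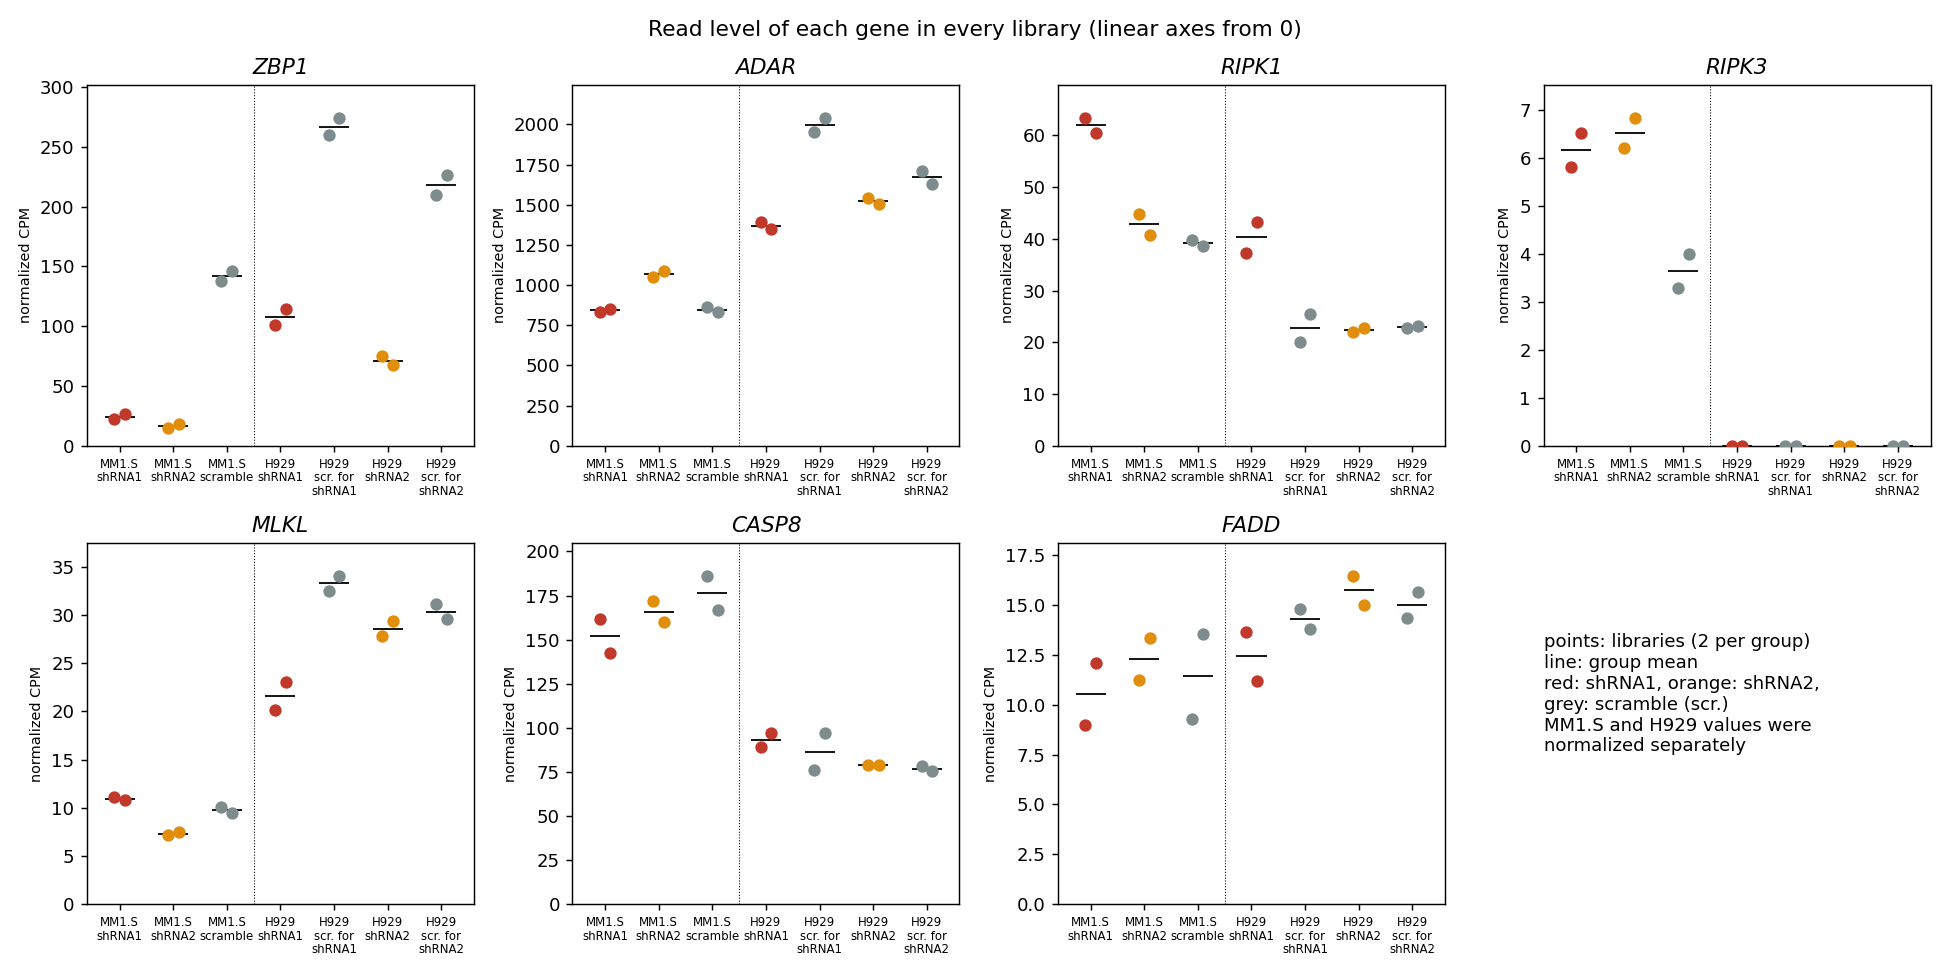
Normalized CPM (vertical axes, linear from 0) of the 7 genes in each of the 14 libraries, by group. Points are libraries and horizontal lines are means of 2; ZBP1 is lower in each knockdown group than in its scramble, and RIPK3 has 0 reads in all 8 H929 libraries.

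Per kilobase of exon, ADAR was the most abundant of the 7 transcripts in every group. In MM1.S scramble cells ADAR had 87.5 ± 2.47 normalized CPM per kb, followed by ZBP1 at 26.3 ± 1.09 and CASP8 at 24.3 ± 1.91 (SD, n = 2 each). The libraries of ZBP1 (25.5 and 27) and CASP8 (23 and 25.7) overlapped on this scale. RIPK1 followed at 9.25 ± 0.193 and FADD at 6.2 ± 1.62. The executor and its kinase came last, MLKL at 1.72 ± 0.0781 and RIPK3 at 1.12 ± 0.155. The exon lengths of FADD and RIPK3 include the overlapped bases given above. How reads there were counted is not known, so their values per kb may be too low, which also bears on ratios built on them. In H929, the scramble for shRNA1 had ADAR at 206 ± 6.29, ZBP1 at 49.4 ± 1.94 and CASP8 at 11.9 ± 2.03 per kb. FADD at 7.76 ± 0.381, MLKL at 5.85 ± 0.189 and RIPK1 at 5.37 ± 0.907 were closer together there, and the MLKL and RIPK1 libraries overlapped.

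**Figure D2:**
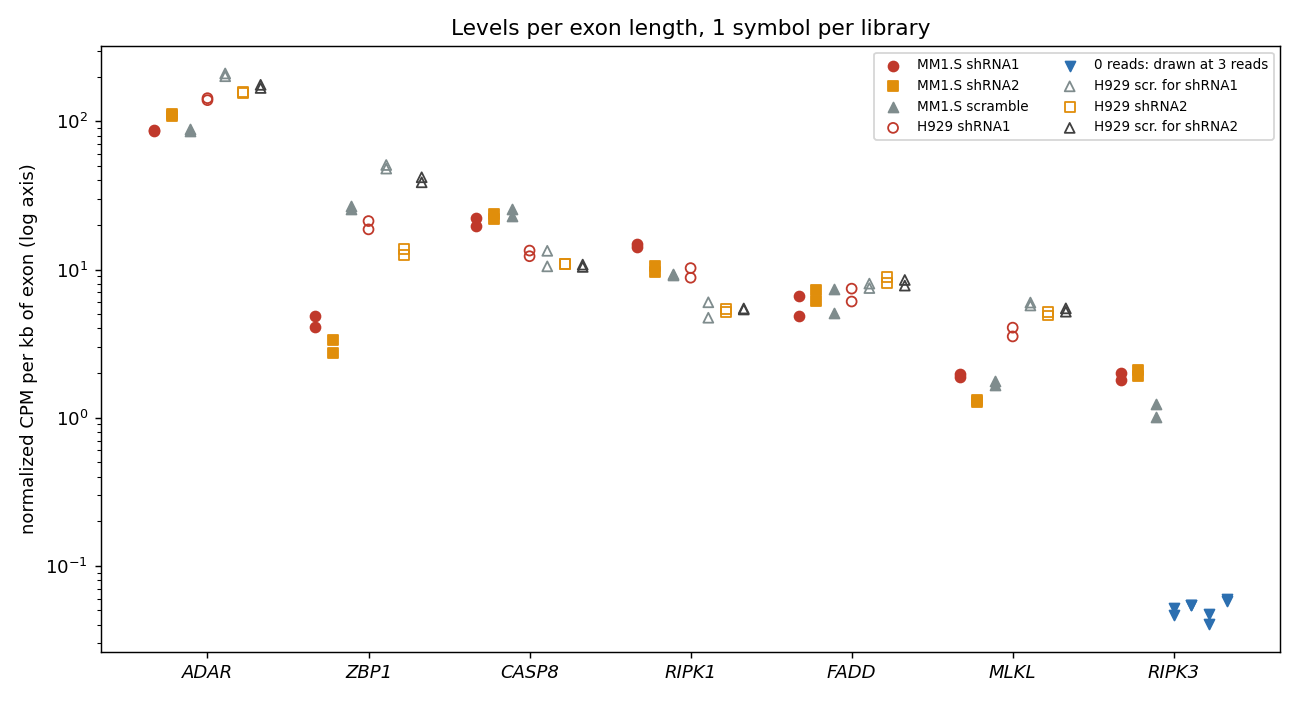
Normalized CPM per kb of exon (log axis) of the 7 genes, 1 symbol per library, with filled symbols for MM1.S and open symbols for H929. ADAR is highest throughout; the inverted triangles mark the 8 H929 libraries with no RIPK3 read, drawn at the level that 3 reads would give.

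ZBP1, the sensor that the hairpins target, fell in all 4 knockdown groups, and further in MM1.S. In MM1.S it had 22.2 and 26.3 normalized CPM with shRNA1 and 14.8 and 18 with shRNA2, against 138 and 146 in scramble cells. In H929 it had 101 and 115 with shRNA1 against 259.5 and 274 in the scramble for shRNA1, and 74.7 and 67.4 with shRNA2 against 209.6 and 227 in the scramble for shRNA2. No knockdown library overlapped its controls. The ZBP1 mRNA left was 17.1% and 11.6% of scramble in MM1.S with shRNA1 and shRNA2, and 40.4% and 32.6% in H929.

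The log2 fold change of ZBP1 was -2.55 ± 0.15 (SE) with shRNA1 and -3.11 ± 0.16 with shRNA2 in MM1.S (edgeR adjusted p = 3.5e-05 and 2.4e-05). In H929 it was -1.31 ± 0.09 and -1.62 ± 0.09 (limma adjusted p = 8.6e-09 and 4.2e-09). These 4 calls were kept under every alternative tried. Loss of ZBP1 went further in MM1.S, with a difference of the effects (MM1.S minus H929) of -1.25 ± 0.17 log2 units with shRNA1 (limma adjusted p = 2.6e-04). With shRNA2 the difference of the effects was -1.48 ± 0.17 (limma adjusted p = 3.1e-04). Within MM1.S, shRNA2 left less ZBP1 than shRNA1 (-0.56 ± 0.15, edgeR adjusted p = 0.0222); this call was lost without shRNA1 replicate 2 (adjusted p = 0.116) or shRNA2 replicate 1 (0.164). In H929 the shRNA2 effect minus the shRNA1 effect was -0.31 ± 0.13 (limma adjusted p = 0.0699).

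Ordered over all 7 groups, ZBP1 averaged 16.4 normalized CPM in MM1.S shRNA2, 24.2 in MM1.S shRNA1, 71.1 in H929 shRNA2, 107.8 in H929 shRNA1, 142 in MM1.S scramble, 218 in the H929 scramble for shRNA2 and 266.9 in that for shRNA1. No neighbours in this order overlapped. H929 cells with shRNA1 thus held ZBP1 mRNA at a level nearer to MM1.S scramble cells than to MM1.S knockdown cells. The H929 scramble groups also differed from each other: ZBP1 was higher in the scramble for shRNA1 than in that for shRNA2 (0.29 ± 0.09, limma adjusted p = 0.0257). That call was lost with no filter on low values (0.0862), without replicate 2 of the scramble for shRNA1 (0.146) and without replicate 1 of that for shRNA2 (0.156).

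ADAR, the editor that restrains ZBP1, fell with shRNA1 in H929 and was higher with shRNA2 in MM1.S, the weaker of these calls. In MM1.S it had 833.9 and 851 normalized CPM with shRNA1 and 1051 and 1088 with shRNA2, against 864.8 and 831 in scramble cells. The shRNA2 libraries lay above all others of that line, and those of shRNA1 overlapped scramble. In H929 it had 1390 and 1348 with shRNA1 against 1955 and 2041 in its scramble, and 1539 and 1503 with shRNA2 against 1710 and 1629 in its scramble. Both H929 knockdown groups lay below their controls.

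In H929, ADAR fell with shRNA1, with a log2 fold change of -0.55 ± 0.09 (limma adjusted p = 6.4e-05), a call kept under every alternative. With shRNA2 the value was -0.13 ± 0.09 (limma adjusted p = 0.228), and -0.26 (0.00976) with both scramble groups as the control. The hairpin effects differed by 0.41 ± 0.12, shRNA2 minus shRNA1 (limma adjusted p = 0.0135), a call lost without either shRNA2 library (0.0788 and 0.0568). In MM1.S, ADAR gave -0.01 ± 0.11 with shRNA1 (edgeR adjusted p = 0.953; 95% interval -0.25 to 0.24). It rose with shRNA2 by 0.34 ± 0.11 (edgeR adjusted p = 0.0405), a call lost without any single one of the 6 libraries (adjusted p from 0.063 to 0.202). It was also lost when only the compared groups entered the fit (edgeR adjusted p = 0.0604), and kept with the replicate block (log2 value 0.33). The rise over shRNA1 was also 0.34 ± 0.11 (edgeR adjusted p = 0.0366), and was lost without any one of the 4 knockdown libraries (0.14 to 0.2).

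The effect on ADAR was higher in MM1.S than in H929 with shRNA1 (difference 0.53 ± 0.12, limma adjusted p = 0.00800), in every alternative. With shRNA2 the difference was 0.49 ± 0.12 (limma adjusted p = 0.0261), a call lost by edgeR on counts and recovered reads (0.0605) and without any one of 6 of the libraries (up to 0.108). Like ZBP1, ADAR was higher in the H929 scramble for shRNA1 than in that for shRNA2 (0.26 ± 0.09, limma adjusted p = 0.0341; lost in 7 of 17 alternatives). Per kb, the ADAR to ZBP1 ratio was 21 and 18.1 with shRNA1 and 39.5 and 33.6 with shRNA2 in MM1.S, against 3.50 and 3.17 in scramble cells. In H929 it was 7.68 and 6.55 with shRNA1 against 4.20 and 4.15 in its scramble, and 11.5 and 12.4 with shRNA2 against 4.55 and 4.01 in its scramble. The ratio was above scramble in every knockdown library of both lines. Its denominator is the gene that the hairpins target, so the fall of ZBP1 raises it by itself. It is not read as a result about ADAR.

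RIPK1, the kinase at the fork between survival, apoptosis and necroptosis, rose with shRNA1 in both lines. In MM1.S it had 63.4 and 60.4 normalized CPM with shRNA1 and 44.9 and 40.7 with shRNA2, against 39.7 and 38.6 in scramble cells. In H929 it had 37.2 and 43.3 with shRNA1 against 20 and 25.4 in its scramble, and 22 and 22.8 with shRNA2 against 22.7 and 23.1 in its scramble. The shRNA1 libraries stood above every other library of their line.

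The RIPK1 increase with shRNA1 was 0.66 ± 0.12 in MM1.S (1.58-fold, edgeR adjusted p = 0.0040) and 0.83 ± 0.13 in H929 (1.78-fold, limma adjusted p = 3.9e-05), and both calls were kept under every alternative. With shRNA2 the values were 0.13 ± 0.12 (95% interval -0.15 to 0.40, edgeR adjusted p = 0.437) and -0.03 ± 0.13 (-0.30 to 0.24, limma adjusted p = 0.857). The hairpins differed in MM1.S, shRNA2 against shRNA1, by -0.53 ± 0.12 (edgeR adjusted p = 0.0104). That call was lost without shRNA1 replicate 1 (0.0698) or shRNA2 replicate 2 (0.107). In H929 the shRNA2 effect minus the shRNA1 effect was -0.86 ± 0.18 (limma adjusted p = 0.00103), in every alternative. The line difference of the RIPK1 effect was -0.17 ± 0.18 with shRNA1 (limma adjusted p = 0.529; interval -0.55 to 0.21) and 0.18 ± 0.18 with shRNA2 (0.586; -0.20 to 0.56).

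RIPK3, the kinase that ZBP1 engages directly, was detected in MM1.S only. It had 5.80 and 6.52 normalized CPM with shRNA1 and 6.19 and 6.83 with shRNA2, against 3.29 and 4 in scramble cells. These rest on 147 and 136 reads with shRNA1, 147 and 170 with shRNA2 and 84 and 109 in scramble libraries. Both knockdown groups lay above scramble and overlapped each other. RIPK3 was 1.69-fold higher with shRNA1 (0.76 ± 0.20, edgeR adjusted p = 0.0181) and 1.79-fold higher with shRNA2 (0.84 ± 0.19, edgeR adjusted p = 0.0121). Single libraries decided these calls. Leaving out scramble replicate 1 ended that of shRNA1 (0.62, edgeR adjusted p = 0.071), as did leaving out shRNA1 replicate 2 (0.71, 0.0722), and leaving out shRNA2 replicate 2 ended that of shRNA2 (0.77, 0.0765). The direct comparison of the hairpins gave 0.08 ± 0.19 (edgeR adjusted p = 0.770; interval -0.36 to 0.52).

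In H929, RIPK3 had 0 reads in each of the 8 libraries, out of 144809602 reads in all. A library with 3 reads, the limit that a count of 0 allows, would show 0.135 to 0.188 CPM, counting error only. Against that limit per library, RIPK3 was at least 16.4-fold higher in MM1.S scramble cells (lowest library 3.08 CPM). Of 10433 genes with at least 84 reads in every MM1.S library, the lowest RIPK3 count, 10 (0.0958%) had no read in any H929 library. No knockdown effect on RIPK3 could be measured in H929.

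MLKL, the pore-forming executor, fell with shRNA1 in H929. There it had 20.1 and 23.1 normalized CPM with shRNA1 against 32.5 and 34.1 in its scramble, and 27.9 and 29.3 with shRNA2 against 31.1 and 29.6 in its scramble. Each H929 knockdown library lay below its own controls, those of shRNA2 by little. In MM1.S it had 11.1 and 10.8 with shRNA1 and 7.2 and 7.43 with shRNA2, against 10.1 and 9.46 in scramble cells. The MM1.S groups did not overlap: shRNA2 was lowest and shRNA1 highest.

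The fall of MLKL in H929 with shRNA1 was -0.63 ± 0.11 (limma adjusted p = 1.5e-04), in every alternative, and the shRNA2 value was -0.08 ± 0.11 (0.559). The difference of these effects, shRNA2 minus shRNA1, was 0.54 ± 0.15 (limma adjusted p = 0.00989; lost without shRNA2 replicate 2, 0.0558). In MM1.S the values were 0.16 ± 0.15 with shRNA1 (edgeR adjusted p = 0.424) and -0.42 ± 0.15 with shRNA2 (0.0666). The replicate block brought the shRNA2 value past the threshold (-0.42, edgeR adjusted p = 0.014). MLKL was lower with shRNA2 than with shRNA1 (-0.58 ± 0.15, edgeR adjusted p = 0.0207), but DESeq2 (0.0632), no filter (0.0605) or leaving out any one of the 4 knockdown libraries (0.0731 to 0.124) ended that call. The shRNA1 effect was higher in MM1.S than in H929 by 0.79 ± 0.16 (limma adjusted p = 0.0044), in every alternative, while the shRNA2 difference was -0.31 ± 0.16 (0.264). MLKL was thus lower with shRNA2 than with shRNA1 in MM1.S, while in H929 its effect was lower with shRNA1; that contrast of contrasts was not tested.

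In MM1.S, the only line with RIPK3 reads, the MLKL to RIPK3 ratio per kb was 1.1 and 0.946 with shRNA1 and 0.665 and 0.623 with shRNA2, against 1.76 and 1.35 in scramble cells. The ratio was lower in each knockdown library than in each scramble library. RIPK3, the denominator here and in the next ratio, was called higher with both hairpins, so its rise lowers both by itself. Neither ratio is read as a result about MLKL or RIPK1. RIPK1 to RIPK3 was 8.41 and 7.14 with shRNA1 and 5.58 and 4.58 with shRNA2, against 9.31 and 7.43 in scramble cells, so that only the shRNA2 libraries stood apart.

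CASP8, the protease that holds necroptosis back, passed the test in none of the 4 knockdown comparisons. In MM1.S it had 162 and 142 normalized CPM with shRNA1 and 172 and 159.9 with shRNA2, against 186 and 167 in scramble cells. The shRNA1 libraries lay below scramble and those of shRNA2 overlapped it. In H929 it had 89 and 97.2 with shRNA1 against 76.1 and 96.9 in its scramble, and 78.9 and 78.7 with shRNA2 against 78.2 and 75.4 in its scramble. The shRNA1 libraries overlapped their scramble and those of shRNA2 lay just above theirs. Log2 values were -0.21 ± 0.13 (95% interval -0.50 to 0.08, edgeR adjusted p = 0.219) and -0.09 ± 0.13 (-0.38 to 0.20, 0.615) in MM1.S. In H929 they were 0.12 ± 0.11 (-0.11 to 0.34, limma adjusted p = 0.378) and 0.04 ± 0.11 (-0.19 to 0.26, 0.802).

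Under the replicate block, CASP8 with shRNA1 in MM1.S passed at the same size (-0.21, edgeR adjusted p = 0.00548), and the authors' deposited table gives it as -0.215 with an adjusted p of 0.00533. In H929 the shRNA1 value depended on the scramble library: it was 0.29 (limma adjusted p = 0.0383) without replicate 2 of the scramble and -0.06 (0.693) without replicate 1. Per kb, the CASP8 to RIPK1 ratio was 1.49 and 1.38 with shRNA1 and 2.24 and 2.30 with shRNA2 in MM1.S, against 2.74 and 2.52 in scramble cells. In H929 it was 1.40 and 1.31 with shRNA1 against 2.22 and 2.23 in its scramble, and 2.10 and 2.01 with shRNA2 against 2.01 and 1.91 in its scramble. The shRNA1 libraries of both lines had the lowest ratios. Their denominator, RIPK1, was called higher with shRNA1 in both lines, which lowers these ratios by itself. They are not read as a result about CASP8.

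FADD, the adaptor between RIPK1 and CASP8, also passed no test. In MM1.S it had 9 and 12.1 normalized CPM with shRNA1 and 11.3 and 13.3 with shRNA2, against 9.31 and 13.5 in scramble cells. In H929 it had 13.7 and 11.2 with shRNA1 against 14.8 and 13.8 in its scramble, and 16.5 and 15 with shRNA2 against 14.3 and 15.6 in its scramble. Of the 4 knockdown groups, H929 shRNA1 alone lay apart from its scramble, below it. By CPM without the between-library scaling, these libraries overlapped (14.84 and 12.56 against 14.81 and 13.48). Replicate 2 was the higher MM1.S library in all 3 groups, and for CASP8 the lower. The log2 values of FADD lay between -0.21 ± 0.14 (H929 shRNA1, limma adjusted p = 0.222) and 0.11 ± 0.23 (MM1.S shRNA2, edgeR adjusted p = 0.748). The widest 95% interval was -0.66 to 0.42, for MM1.S with shRNA1, so that changes of that size in either direction are not excluded.

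**Figure D3:**
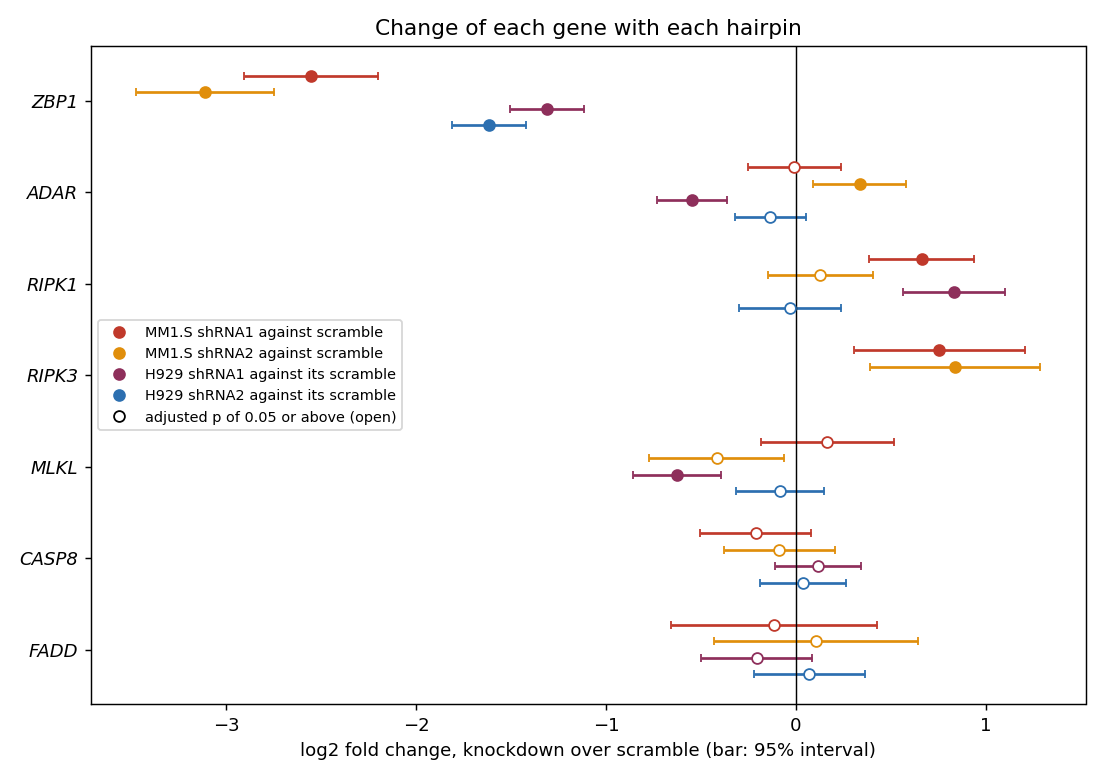
Log2 fold change (horizontal axis, knockdown over scramble) of the 7 genes in the 4 knockdown comparisons, with 95% intervals; filled points have an adjusted p under 0.05. ZBP1 is below 0 in all 4, RIPK1 is above 0 with shRNA1 in both lines, and RIPK3 has no H929 value.

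Counted together, 3 of 7 genes were called with shRNA1 in MM1.S (2 higher, 1 lower), where 37.5% of all 17820 tested genes were called (17.8% higher, 19.7% lower). With shRNA2 in MM1.S again 3 of 7 were called (2 higher, 1 lower), against 36.6% of all genes (14.9% higher, 21.7% lower). In H929, where 6 of the 7 could be tested among 18213 genes, 4 were called with shRNA1 (1 higher, 3 lower), against 53.4% of all genes (25.7% higher, 27.7% lower). With shRNA2 in H929, ZBP1 alone was called, lower, against 43.0% of all genes (18% higher, 25% lower). The direct comparison of the hairpins in MM1.S called 4 of 7 (1 higher, 3 lower), against 36.8% of all genes (16.4% higher, 20.4% lower). The difference of the hairpin effects in H929 called 3 of 6 (2 higher, 1 lower), against 41.8% of all genes (20.0% higher, 21.9% lower). The scramble groups of H929 differed in 2 of 6, both higher in that for shRNA1, against 29.9% of all genes (13.1% higher, 16.8% lower). The line differences gave 3 of 6 with shRNA1 (2 higher, 1 lower), against 21.4% of 20370 genes (10.4% higher, 11% lower), and 2 of 6 with shRNA2 (1 higher, 1 lower), against 9.75% (4.34% higher, 5.41% lower). With 6 or 7 genes and backgrounds this high, the knockdown counts are read as near to what all genes show. Of the 11 calls in the 4 knockdown comparisons, 8 were kept under every alternative. The other 3 are RIPK3 with both hairpins and ADAR with shRNA2 in MM1.S. These counts include ZBP1, which the hairpins target: it was called lower in all 4 comparisons, and each of its calls was kept.

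Scaling by total reads alone, an alternative chosen after seeing the data, shifted the median log2 value of all genes to 0.12 and 0.077 in MM1.S with shRNA1 and shRNA2, and to 0.154 and 0.138 in H929. The share of higher among called genes became 58.3% in place of 47.4% with MM1.S shRNA1, 60.7% in place of 48.2% with H929 shRNA1, and 60.2% in place of 41.8% with H929 shRNA2. None of the 11 calls changed direction or was lost on that scale. Values not called that turned sign on it were ADAR with shRNA1 (0.11) and CASP8 with shRNA2 (0.02) in MM1.S, and ADAR (0.02), RIPK1 (0.12) and MLKL (0.07) with shRNA2 in H929, while CASP8 with shRNA1 in H929 became called (0.27, limma adjusted p = 0.0369).

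The authors' deposited table gives the same direction for the 11 calls. Its log2 fold changes of ZBP1 are -2.54 and -3.07 in MM1.S and -1.25 (shRNA1) and -1.60 (shRNA2) in H929. RIPK3 is listed there with a mean of 0 in H929.

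The genes whose levels followed each of the 7 most closely were found among 9808 genes over the 14 libraries, after each line's mean was removed from log2(CPM + 1). Pearson's r is a description here, since libraries share groups and hairpins. ZBP1 was followed most closely by MICB, a ligand of the NKG2D receptor of natural killer cells (0.978), by CRTAP, which acts in collagen modification (0.974), and by the myeloma surface antigen GPRC5D (0.972). The most opposite were MTIF3, a mitochondrial translation initiation factor (-0.961), the proteasome subunit PSMB5 (-0.959) and C1orf43 (-0.957). For ADAR they were TGOLN2 (0.930), AKAP8L (0.917) and the interferon-induced TRIM22 (0.887). The order depends on the measure. By Spearman's correlation, MICB, CRTAP and GPRC5D ranked 2, 53 and 8 for ZBP1. TGOLN2, AKAP8L and TRIM22 ranked 1, 56 and 4 for ADAR.

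RIPK1 was followed by CAST, the calpain inhibitor calpastatin (0.979, rank 119 by Spearman's correlation), USP46 (0.976, rank 45) and RUFY2 (0.975, rank 308). For MLKL they were SLC18B1 (0.980), the butyrophilin BTN3A2 (0.966) and CD70 (0.908), for CASP8 MSL3 (0.929), ZFP1 (0.913) and ZNF436 (0.913), and for FADD C4orf48 (0.909), ADAT3 (0.893) and ENDOG (0.887). RIPK3, whose pattern rests on the 6 MM1.S libraries, was followed by the histone demethylase KDM5B (0.963), RNF207 (0.952) and LYL1 (0.945), and was most opposite to CCDC14 (-0.974), PDK1 (-0.945) and MSRB3 (-0.941). Among the 7 genes themselves the largest positive value was 0.634, between RIPK1 and CASP8, and ZBP1 and RIPK3 had -0.802.

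A further 64 genes around the 7 were taken from 5 lists by role. Of the 118 calls they gave in the 4 knockdown comparisons, 58 were kept under every alternative and none changed direction; a knockdown call named below without a remark is one of those 58. With MM1.S shRNA1, 19 of 63 tested were higher and 9 lower, with a median log2 value of 0.218, against 0.002 over all genes. With MM1.S shRNA2, 8 were higher and 13 lower (median 0.083, all genes -0.027). With H929 shRNA1, 19 of 64 were higher and 23 lower (median -0.047, all genes -0.009), and with H929 shRNA2, 5 were higher and 22 lower (median -0.168, all genes -0.019). The share called was 44.4% with MM1.S shRNA1, against 37.5% of all genes tested, and 33.3% with MM1.S shRNA2, against 36.6%. It was 65.6% with H929 shRNA1, against 53.4% of all genes, and 42.2% with H929 shRNA2, against 43.0%. The share of each list is read against the same all-gene shares, and with 8 to 21 genes a list, 1 call moves it by several percentage points.

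Among receptors and adaptors upstream, 4 of 8 were higher and 0 lower with MM1.S shRNA1 (50% called, against 37.5% of all genes, of which 17.8% higher and 19.7% lower). The largest was TLR3, a sensor of double-stranded RNA (1.35 ± 0.38, edgeR adjusted p = 0.0267, lost in 3 of 13 alternatives). The others include the Toll-like receptor TLR4 (1.2 ± 0.19, edgeR adjusted p = 0.0021) and the TRAIL receptor TNFRSF10B (0.74 ± 0.12, 0.0024), which was also called with shRNA2 (0.39 ± 0.12, edgeR adjusted p = 0.035, a call not kept in every alternative). With MM1.S shRNA2, 1 was higher and 1 lower (25% called, against 36.6% of all genes), and 3 and 3 with the replicate block. In H929, 2 were higher and 2 lower with shRNA1 (50% called, against 53.4% of all genes), led by the death receptor gene FAS (1.12 ± 0.13, limma adjusted p = 2.8e-06). With H929 shRNA2, 1 was higher and 2 lower (37.5% called, against 43.0% of all genes), among them TICAM1, the RHIM adaptor of TLR3 (-0.54 ± 0.11, limma adjusted p = 7.2e-04).

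The checkpoints on RIPK1 and CASP8 are the ubiquitin ligases, deubiquitinases and kinases that set whether RIPK1 signals for survival or death, with CFLAR, the catalytically inactive CASP8 relative that inhibits it. With MM1.S shRNA1, 5 of 21 were higher and 2 lower (10 and 7 with the replicate block), and with H929 shRNA1, 10 and 6. These are 33.3% called, against 37.5% of all genes, and 76.2%, against 53.4%. BIRC3, the ubiquitin ligase cIAP2, had the largest change of the list with shRNA1: 1.97 ± 0.23 in MM1.S (edgeR adjusted p = 6.0e-04) and 2.10 ± 0.16 in H929 (limma adjusted p = 2.4e-08). With shRNA2 it gave 0.45 ± 0.23 in MM1.S (0.16) and -0.26 ± 0.16 in H929 (0.22). The hairpins differed in BIRC3 by -1.52 ± 0.23 in MM1.S (edgeR adjusted p = 0.0020) and in their effects by -2.35 ± 0.23 in H929 (limma adjusted p = 9.0e-07). It was also higher in the H929 scramble for shRNA1 than in that for shRNA2 (0.87 ± 0.16).

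With MM1.S shRNA2, 2 of these 21 were higher and 3 lower (9 and 5 with the block), and with H929 shRNA2, 2 and 4 (9 and 2 by total reads). These are 23.8% called, against 36.6% of all genes, and 28.6%, against 43.0%. TNFAIP3, the ubiquitin-editing enzyme A20, fell with shRNA2 in MM1.S (-1.09 ± 0.12, edgeR adjusted p = 3.8e-04) and in H929 (-0.87 ± 0.14, limma adjusted p = 8.8e-05). TNFAIP3 was also called lower with shRNA1 in H929 (-0.51 ± 0.14, limma adjusted p = 0.0049), a call lost in 1 of 18 alternatives. With shRNA1 in MM1.S its value was 0.31 ± 0.11 (edgeR adjusted p = 0.067). IKBKB, the kinase IKK-beta, which phosphorylates RIPK1, was the only gene of the 5 lists called in 1 direction in all 4 comparisons. It was higher by 0.66 ± 0.11 and 0.44 ± 0.11 in MM1.S and by 0.50 ± 0.09 with each hairpin in H929; the MM1.S shRNA2 call was lost in 3 of 13 alternatives.

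Of the 11 genes listed as downstream of MLKL or beside it, 2 were higher and 4 lower with MM1.S shRNA1 (3 and 8 with the block). With MM1.S shRNA2, 1 was higher and 4 lower (4 and 6 with the block). Not all 11 are executors of cell death: HSP90AA1, HSP90AB1, CDC37, CHMP2A and CHMP4B are not. HSP90AA1 and HSP90AB1 are among the 4 lower with MM1.S shRNA1. In H929, 2 were higher and 4 lower with shRNA1, and 0 and 6 with shRNA2. The share called was 54.5% with MM1.S shRNA1, 45.5% with MM1.S shRNA2, and 54.5% with either hairpin in H929, against 37.5% with MM1.S shRNA1, 36.6% with MM1.S shRNA2, 53.4% with H929 shRNA1 and 43.0% with H929 shRNA2 over all genes. DFNA5, the pore-forming gasdermin E, rose with shRNA1 in MM1.S (2.06 ± 0.18, edgeR adjusted p = 1.4e-04) and gave 0.02 ± 0.34 in H929 (limma adjusted p = 0.97).

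Beside ADAR, 13 genes sense, edit or bind double-stranded RNA, and ADARB2 among them was not tested in MM1.S for low counts. With MM1.S shRNA1, 3 of 12 were higher and 3 lower (5 and 5 with the block), and with MM1.S shRNA2, 2 and 3 (5 and 4 with the block). In H929, 2 of 13 were higher and 7 lower with shRNA1, and 2 and 5 with shRNA2. These are 50% and 41.7% called in MM1.S, against 37.5% and 36.6% of all genes, and 69.2% and 53.8% in H929, against 53.4% and 43.0%. IFIH1, the RNA sensor MDA5, fell with shRNA1 in H929 (-1.24 ± 0.10, limma adjusted p = 5.3e-08) and rose with shRNA2 in MM1.S (0.85 ± 0.13, edgeR adjusted p = 0.0021). It was also called higher with shRNA1 in MM1.S (0.52 ± 0.13, edgeR adjusted p = 0.0171) and with shRNA2 in H929 (0.40 ± 0.10, limma adjusted p = 0.0051), calls lost in 2 of 13 and 3 of 18 alternatives. EIF2AK2, the kinase PKR, fell in H929, with -1.22 ± 0.12 for shRNA1 and -1.03 ± 0.12 for shRNA2 (limma adjusted p = 2.6e-07 and 3.8e-06), and was at -1.02 ± 0.16 with shRNA2 in MM1.S (edgeR adjusted p = 0.0023). Both genes were higher in the H929 scramble for shRNA1 than in that for shRNA2, by 0.67 ± 0.10 (IFIH1) and 0.69 ± 0.12 (EIF2AK2). Of the 13 genes, 5 were higher and 2 lower in that comparison (53.8% called, against 29.9% of all genes). Across the alternatives, the IFIH1 value with H929 shRNA2 ranged from 0.064 to 0.56.

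The 11 interferon-signalling genes bear on ZBP1, ADAR and MLKL, which are known interferon-induced genes. With MM1.S shRNA1, 5 were higher and 0 lower (7 and 1 with the block), and with MM1.S shRNA2, 2 and 2 (3 and 4 with the block). In H929, 3 were higher and 4 lower with shRNA1, and 0 and 5 with shRNA2. These are 45.5% and 36.4% called in MM1.S, against 37.5% and 36.6% of all genes, so that the shRNA2 share was near that of all genes. In H929 they are 63.6% and 45.5% called, against 53.4% and 43.0%. The feedback regulator USP18 fell with shRNA1 in H929 (-2.03 ± 0.27, limma adjusted p = 9.7e-06). In MM1.S it gave 0.28 ± 0.43 with shRNA1 (edgeR adjusted p = 0.647), and the line difference of its shRNA1 effect was 2.30 ± 0.53 (limma adjusted p = 0.0081). Between the H929 scramble groups, 7 of the 11 were higher in the scramble for shRNA1 and 0 lower, USP18 by 1.08 ± 0.27; over all genes 13.1% were higher and 16.8% lower.

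**Figure D4:**
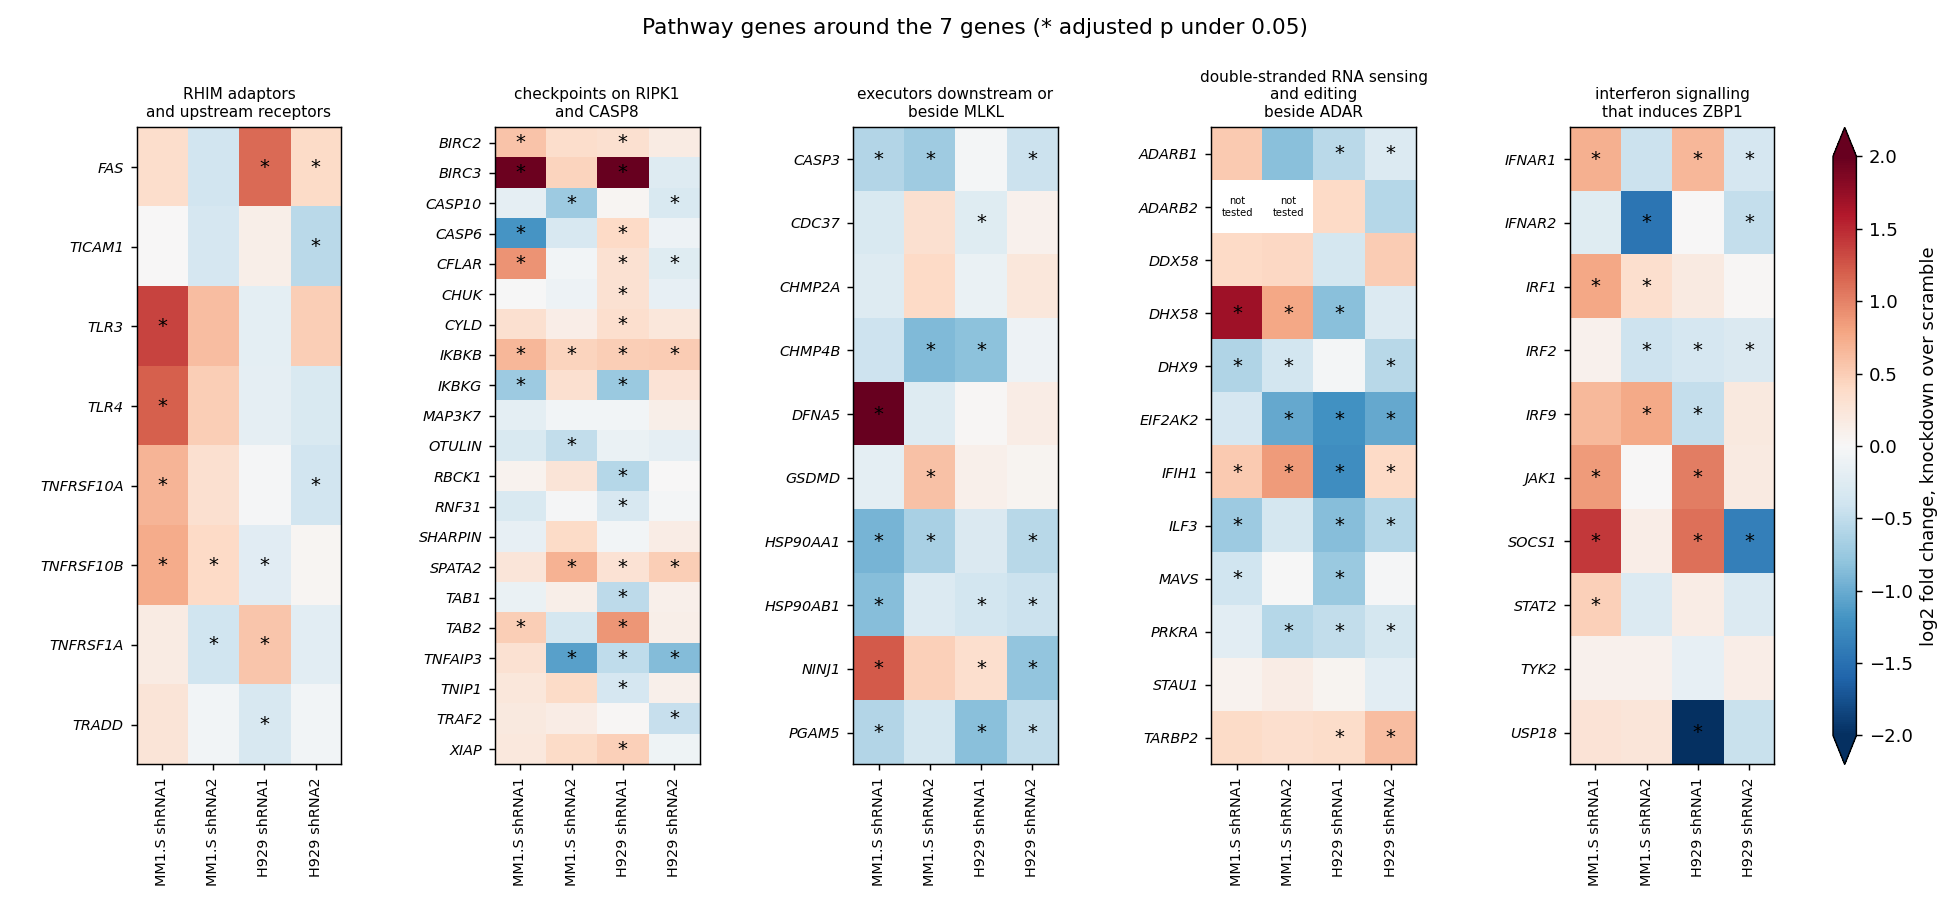
Log2 fold change (colour, knockdown over scramble) of genes of the 5 lists in the 4 knockdown comparisons; asterisks mark an adjusted p under 0.05. IKBKB carries an asterisk in all 4 columns, and the BIRC3 row is higher with shRNA1 in both lines.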

How the data were processed

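Poly(A) RNA from MM1.S and H929 cells was sequenced, and libraries were grouped by the labels' cell line and shRNA fields. The submitters' processing notes name STAR 2.5.3a, DESeq2 1.24.0 and the build GRCh38. MM1.S values were deposited as raw counts per gene. H929 values were deposited by the authors as a signal: counts divided by size factors, from which whole reads were recovered for 100.0% of values (tolerance 0.01). The authors also deposited log2 fold changes and adjusted p-values.

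MM1.S counts were tested with edgeR 4.0.16 (quasi-likelihood, TMM, filterByExpr minimum count 10), and H929 values with limma 3.58.1 on log2(value + 1), for genes at 10 or more in at least 2 libraries. Differences between lines used limma over all 14 libraries on the same log2 scale; such fold changes understate those of low genes. P-values were Benjamini-Hochberg adjusted over all genes tested (threshold 0.05). Fits were tested on simulated data. Normalized CPM divides by the TMM-scaled library size in MM1.S and by the mean deposited total in H929. Standard errors of edgeR come from the fold change and its F statistic.

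The 7 genes were all named. From a list, members called 1 way with both hairpins of a line or in all 4 comparisons were named, or those with the 2 largest changes each way. Some list genes are counted but not reported here by name. Genes alike in pattern were the 3 with the highest Pearson correlation, and for ZBP1 and RIPK3 also the 3 lowest, among genes with a mean of at least 5 CPM in each line. The genes, lists and tests were chosen with earlier results of these data known. DESeq2 1.42.0, other scalings, filters, pseudocounts, control sets and leaving out each library were the alternatives. Columns of shRNA2 and of 1 scramble library were assigned by elimination. MM1.S libraries with the same number deviated together from their group means (r of 0.677, 0.637 and 0.849 over 9463 genes), which was taken as pairing. Of 58051 genes, 57447 had an identifier in GENCODE 29. A further 18 rows with a repeated identifier were left out, and no column of per-sample values was left unused.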

Additional observations from a re-analysis of the deposited data

Results flagged for a closer look

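The effect of a hairpin differed between the lines, by a direct test of MM1.S minus H929 effects, for 5 values of 3 genes. For ZBP1 the difference was -1.25 with shRNA1 and -1.48 with shRNA2, a deeper loss in MM1.S with both hairpins. ADAR had 0.53 with shRNA1 and 0.49 with shRNA2, both higher in MM1.S; in H929 the call was a fall with shRNA1, and in MM1.S a rise with shRNA2. MLKL had 0.79 with shRNA1, the effect of which was a fall in H929 and a value not called in MM1.S. The control of the H929 shRNA1 comparison was itself higher than the other H929 scramble group in ZBP1 and ADAR, and its part in the line differences with shRNA1 was not tested. No group had the 4 libraries that a test for outlying samples needs.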

How the results depend on the processing

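Of the values of the 7 genes under the alternatives, 859 kept direction and call, 44 lost the call, 7 gained it and 29 turned sign; the causes were not tested. No value that turned sign was called. Over all genes, the replicate block gave 10581, 10474 and 10380 calls in MM1.S (shRNA1, shRNA2, shRNA2 against shRNA1), in place of 6689, 6526 and 6559; in the shRNA2 line difference it gave 3850 and no filter 1201, in place of 1987. In H929, where same-numbered libraries correlated between -0.191 and 0.228 and share only a number, the block gave 9716 and 7824 calls, in place of 9729 and 7825. The block changed no call of the 7 genes beyond MLKL and CASP8 as given above.

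Leaving out 1 library gave 4336 to 5998 calls for MM1.S shRNA1, 3616 to 6351 for shRNA2 and 3708 to 7075 for shRNA2 against shRNA1. It gave 8246 to 9701 for H929 shRNA1, 5259 to 8374 for shRNA2, 5910 to 7354 for the difference of their effects, 3268 to 6026 between scramble groups, 3057 to 4484 for the shRNA1 line difference and 823 to 2141 for that of shRNA2. A group's lone library is then assumed to vary like the other groups. The higher share among calls became 65.0% in place of 43.7% (scramble groups) and 33.8% in place of 44.5% (shRNA2 line difference) by total reads, 63.0% in place of 48.5% (shRNA1 line difference) by TMM, and 29.9% in place of 44.5% (shRNA2 line difference) by edgeR.

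Sign turned for ADAR with MM1.S shRNA1 by median-of-ratios scaling (6.1e-04), by total reads (0.11) and on leaving out 1 library (-0.045 to 0.045), and for ADAR with H929 shRNA2 by total reads (0.023). RIPK1 turned with H929 shRNA2 by edgeR (0.0089) and total reads (0.12), and between scramble groups by edgeR (0.0093), total reads (0.096) and on leaving out 1 library (-0.20 to 0.15). MLKL turned with H929 shRNA2 by total reads (0.073), and RIPK3 between MM1.S hairpins without 1 library (-0.0040 to 0.16). CASP8 turned with MM1.S shRNA2 by total reads (0.018), with H929 shRNA2 against both scramble groups (-0.043), and without 1 library with H929 shRNA1 (-0.058 to 0.29), in the effect difference (-0.25 to 0.096) and between scramble groups (-0.013 to 0.34). FADD turned without 1 library with MM1.S shRNA1 (-0.37 to 0.17) and shRNA2 (-0.14 to 0.40) and in the line differences of shRNA1 (-0.17 to 0.37) and shRNA2 (-0.19 to 0.34). It also turned between scramble groups by total reads (0.051) and in the shRNA2 line difference by edgeR (-0.047).

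CASP8 was called between the scramble groups without replicate 1 of that for shRNA1 (0.34, adjusted p = 0.0325), and ZBP1 in the effect difference without H929 shRNA1 replicate 1 (-0.40, adjusted p = 0.0197). With 2 libraries per group, small changes of RIPK3 and FADD, which have 84 to 369 reads in MM1.S libraries, are the least precise.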

Other observations

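The genes around RIPK3 on chromosome 14 were listed after its count of 0 in H929 was seen. Only protein-coding genes were looked at. Of the 16 such genes within 100 kb, 12 had a read in every H929 library. NFATC4, a transcription factor gene 25.6 kb from RIPK3, had 70 to 296 reads in MM1.S libraries and 0 to 17 in H929 libraries. CBLN3, at 86.5 kb, had 294 to 848 reads in MM1.S and 20 to 132 in H929. Farther on that side, KHNYN, at 89.2 kb, had 1517 to 2858 reads in MM1.S and 894 to 2637 in H929, and SDR39U1, at 99.7 kb, had 97 to 190 in MM1.S and 230 to 369 in H929. On the other side, the leukotriene receptor gene LTB4R, at 18 kb, had 169 to 350 reads in MM1.S and 252 to 687 in H929. ADCY4, the nearest of these protein-coding genes that does not overlap RIPK3, at 0.9 kb, had 4 to 12 reads in MM1.S and 0 to 5 in H929.

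Per kb, the CASP8 to FADD ratio was 4.57 and 2.99 with shRNA1 and 3.88 and 3.05 with shRNA2 in MM1.S, against 5.08 and 3.13 in scramble cells. The groups overlapped; between libraries of the same number, both hairpins lay below scramble in both replicates. In H929 it was 1.65 and 2.21 with shRNA1 against 1.31 and 1.78 in its scramble, and 1.22 and 1.33 with shRNA2 against 1.39 and 1.22 in its scramble.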
